A study of Homo sapiens with 19 samples.

Results

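Genes for 9 surface antigens of leukaemia cells were examined for H3K27ac, the acetylated form of lysine 27 of histone H3 found at active promoters and enhancers. The genes, CD33, CD34, CD38, CD44, CD47, ITGAM, CLEC12A, HAVCR2 and PTPRC, were chosen by name, and all 9 were found among the 20033 protein-coding genes that GENCODE places on chromosomes 1 to 22, X and Y of hg38. For each gene, H3K27ac peaks within 500 bp of an annotated transcription start site (TSS) and within 50 kb of the gene body were taken from the peak lists of 4 human cell lines. The AML lines HL-60, Molm13 and OCI-AML3 stem from acute myeloid leukaemia, and K562 stems from chronic myelogenous leukaemia. HL-60 and Molm13 cells were untreated. OCI-AML3 and K562 cells carried a lentiviral dCas9-KRAB-mCherry vector together with an empty sgRNA vector with a BFP reporter, and had been sorted for both reporters. All lines were grown in RPMI medium with fetal bovine serum. Vector and cell line therefore cannot be told apart. Each line was represented by 1 library, so every value below is a description of that library, without an SD and without a test between lines.

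The 9 genes encode proteins that are used to recognise, sort or treat myeloid leukaemias. CD33, CLEC12A and HAVCR2 are immune receptors of myeloid cells, ITGAM is an integrin subunit of mature granulocytes and monocytes, and CD34 and CD38 mark steps of progenitor maturation. CD44, CD47 and PTPRC are carried by many blood cells. H3K27ac at a TSS commonly goes with transcription of the gene, and H3K27ac away from a TSS is the usual chromatin signature of an active enhancer.

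On these chromosomes the lists held 37571 peaks in OCI-AML3, 20772 in HL-60, 35136 in Molm13 and 37424 in K562, and the sequencing depth behind them was unknown. A missing peak therefore means that none was called, and a weaker mark in every cell cannot be told apart from a mark in fewer cells. The labels were checked with lineage genes. The erythroid genes GATA1, KLF1, EPOR, HBG2 and TAL1 each had a peak at the canonical TSS, the start of the reference transcript, in K562 and in no AML line. Of 7 myeloid genes, 7 were marked there in OCI-AML3, 5 in HL-60, 7 in Molm13 and 3 in K562. Of 4 lymphoid genes, 3 were marked there in HL-60 and 1 in each other line, CD79A being marked in all 4 lines. The share of all protein-coding genes marked there was 54.0% in OCI-AML3, 41.0% in HL-60, 49.9% in Molm13 and 52.1% in K562. By any annotated TSS, EPOR was marked in all 4 lines and 4 of the 7 myeloid genes in K562. By that rule, 3 lymphoid genes were marked in HL-60 and 2 in each other line.

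OCI-AML3 carried H3K27ac at a TSS of all 9 surface genes, and K562 at a TSS of 4. A TSS peak was called for 9 genes in OCI-AML3, 6 in HL-60, 7 in Molm13 and 4 in K562. Among all protein-coding genes, the share with a TSS peak was 57.7% in OCI-AML3, 44.7% in HL-60, 53.9% in Molm13 and 55.9% in K562. CD33, CD47, HAVCR2 and PTPRC were marked in all 4 lines, as were 40.5% of all protein-coding genes. CD44 and CLEC12A were marked in the 3 AML lines and not in K562, a pattern of 2.22% of protein-coding genes. CD38 was marked in Molm13 and OCI-AML3 (2.78% of protein-coding genes), and CD34 and ITGAM in OCI-AML3 alone (1.95%). With peaks of a q-value below 0.001, OCI-AML3 had 7 marked genes, losing CD34 and CLEC12A, Molm13 had 5, HL-60 had 2 (CD47 and HAVCR2) and K562 had 4, against 53.3%, 47.4%, 36.2% and 49.5% of all protein-coding genes. With the lists cut to the length of the shortest, OCI-AML3 again lost CD34 and CLEC12A and had 7, and Molm13 had 6. HL-60 kept 6 and K562 kept 4. Of all protein-coding genes, 53.0% were then marked in OCI-AML3, 50.1% in Molm13, 44.7% in HL-60 and 52.5% in K562.

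The canonical TSS gave a shorter list. With that start alone, 8 genes were marked in OCI-AML3, 5 in HL-60, 7 in Molm13 and 3 in K562. Of all protein-coding genes, 54.0% were so marked in OCI-AML3, 41.0% in HL-60, 49.9% in Molm13 and 52.1% in K562. CD33, CD47 and PTPRC were then the 3 genes marked in every line (37.4% of protein-coding genes). CD44 and CLEC12A kept the pattern of the 3 AML lines (1.94%) and ITGAM that of OCI-AML3 alone (2.02%). CD34 was marked in none. The HAVCR2 peaks of HL-60 and K562 and the CD34 peak of OCI-AML3 lay at other annotated starts.

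**Figure D1:**
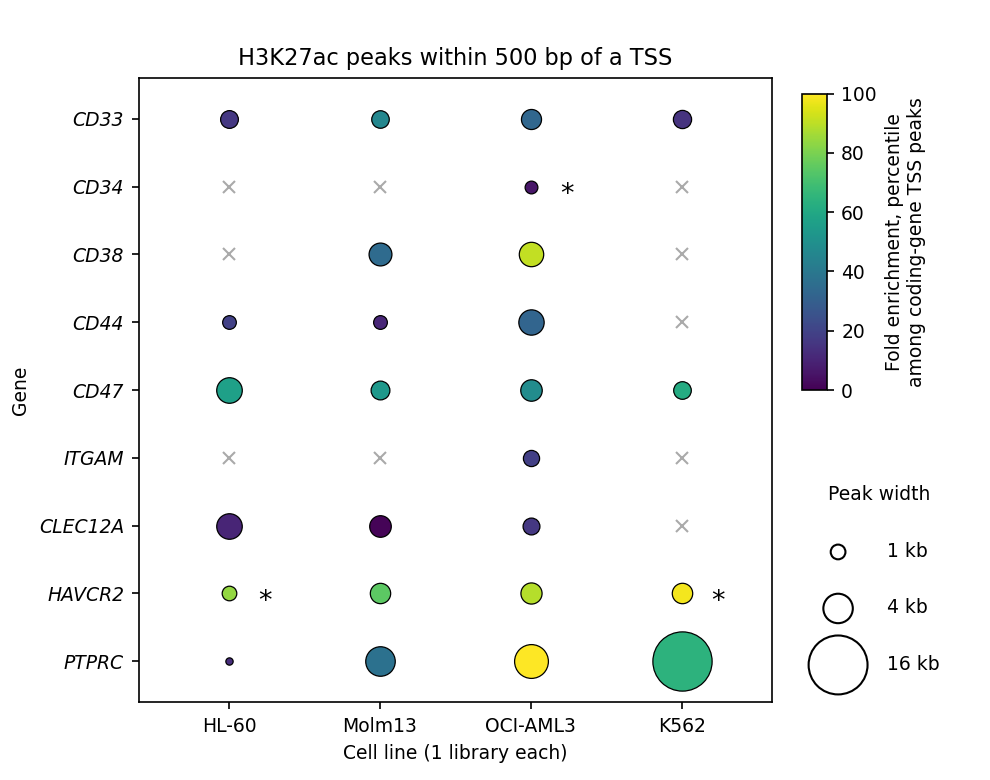
H3K27ac peaks within 500 bp of an annotated TSS of the 9 genes (rows) in the 4 lines (columns, 1 library each). Circle area is proportional to the width of the widest TSS peak, colour is the percentile of its fold enrichment among the TSS peaks of protein-coding genes in the same list, a cross means no peak, and an asterisk means that the canonical TSS had none. The OCI-AML3 column is filled for all 9 genes, and the widest circle is PTPRC in K562, at 16170 bp.

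The promoters of these genes differed widely in sequence. RefSeq promoters of 300 bases, from 250 before to 50 after the start, were available for 8 genes (build GRCh38.p14), and in all 8 the start was the GENCODE canonical TSS. The gene without an entry was HAVCR2. The number of CG dinucleotides in the 300 bases was 45 for CD47, 19 for CD34, 18 for CD44, 4 for CD38, 3 for CD33, 2 for ITGAM, 1 for PTPRC and 0 for CLEC12A, and the median over the 35116 promoters of the table was 14. The 250 bases before the start are printed here for the 3 genes with a canonical TSS peak in every line, for CLEC12A as a gene marked in the AML lines and not in K562, and for CD34, whose canonical TSS was marked in none. They run 5′ to 3′ along the gene, with CG dinucleotides in capitals.
CD47 (chr3:108091032-108091281, minus strand): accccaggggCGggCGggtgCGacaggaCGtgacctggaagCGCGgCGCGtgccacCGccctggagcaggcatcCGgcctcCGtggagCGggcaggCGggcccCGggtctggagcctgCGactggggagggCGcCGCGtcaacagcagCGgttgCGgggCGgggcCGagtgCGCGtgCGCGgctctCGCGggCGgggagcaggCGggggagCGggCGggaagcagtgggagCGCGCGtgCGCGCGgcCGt
CD33 (chr19:51224830-51225079, plus strand): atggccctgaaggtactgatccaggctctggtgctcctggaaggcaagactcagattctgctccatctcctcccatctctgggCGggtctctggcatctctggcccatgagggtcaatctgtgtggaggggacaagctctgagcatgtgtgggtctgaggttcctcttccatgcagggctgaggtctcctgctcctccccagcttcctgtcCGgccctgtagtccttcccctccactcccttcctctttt
PTPRC (chr1:198638790-198639039, plus strand): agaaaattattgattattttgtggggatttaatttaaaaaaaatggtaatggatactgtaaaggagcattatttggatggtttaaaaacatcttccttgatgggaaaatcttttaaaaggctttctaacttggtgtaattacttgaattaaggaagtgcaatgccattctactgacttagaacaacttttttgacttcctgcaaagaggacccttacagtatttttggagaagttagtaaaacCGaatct
CLEC12A (chr12:9971159-9971408, plus strand): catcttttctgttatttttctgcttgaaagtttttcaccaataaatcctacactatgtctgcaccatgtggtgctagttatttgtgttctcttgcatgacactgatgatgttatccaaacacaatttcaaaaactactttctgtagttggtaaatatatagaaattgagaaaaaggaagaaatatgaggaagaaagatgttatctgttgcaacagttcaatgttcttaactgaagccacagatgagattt
CD34 (chr1:207911126-207911375, minus strand): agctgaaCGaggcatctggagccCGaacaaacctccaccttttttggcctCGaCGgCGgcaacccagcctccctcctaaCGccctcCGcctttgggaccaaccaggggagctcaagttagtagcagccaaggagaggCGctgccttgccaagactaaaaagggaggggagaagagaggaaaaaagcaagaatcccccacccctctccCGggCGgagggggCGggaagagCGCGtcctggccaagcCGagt
Of the promoters marked in every line, CD47 held 39 CG dinucleotides in the printed bases, CD33 held 2 and PTPRC held 1. The unmarked CD34 promoter held 14.

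Short sequence motifs of 4 myeloid and erythroid regulators were searched on both strands of the 300 bases. GAGGAAGT (SPI1 type) was found in 0 of the 8 promoters and in 2.59% of all promoters, and TTGCNNAA (C/EBP type) in 0 of 8 and 10.5%. TGTGGT (RUNX type) was found in CLEC12A and ITGAM and in 13.1% of all promoters. The motif AGATAA, bound by factors of the GATA family, was found in CLEC12A, 46 to 51 bases before the start on the opposite strand, and in 10.3% of all promoters. These are matches of letters within a short window and say nothing of binding.

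PTPRC encodes CD45, the receptor phosphatase carried by nearly all white blood cells, and here it had the widest H3K27ac domain of the 9 genes. The gene (ENSG00000081237.21) spans 198638457 to 198757476 on the plus strand of chromosome 1. In K562, a single peak of 16170 bp (198627513 to 198643682) covered the canonical TSS. The peak at this TSS was 5266 bp wide in OCI-AML3, 4015 bp in Molm13 and 245 bp in HL-60, where it lay 382 bp downstream of the TSS. Among the TSS peaks of protein-coding genes in the same list, these widths stood at percentile 99.0 in K562, 85.3 in Molm13, 90.0 in OCI-AML3 and as low as 1.02 in HL-60. TSS peaks of 10 kb or more were found for 4.38% of the genes with a TSS peak in K562. By fold enrichment, the order of the lines was different, and the PTPRC peak stood at percentile 99.9 in OCI-AML3 (fold enrichment 7.25), 64.1 in K562 (3.87), 37.4 in Molm13 (5.38) and 12.7 in HL-60 (3.51).

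The PTPRC locus also held the most peaks in K562. The gene body with 50 kb on each side, here called the window, contained 16 peaks in K562, 8 in Molm13, 12 in OCI-AML3 and 7 in HL-60. They covered 21.99% of its length in K562, 5.80% in Molm13, 12.1% in OCI-AML3 and 3.53% in HL-60. In K562, this window thus held 64.3% of all the H3K27ac-covered length of the 9 windows, against 15.6% to 25.5% in the AML lines. An intronic region centred 42.9 kb into the gene was marked in all 4 lines, with widths of 8295 bp in OCI-AML3, 2136 bp in HL-60, 3139 bp in Molm13 and 6224 bp in K562. In OCI-AML3 it came within 500 bp of the start of the pseudogene PEBP1P3. A further intronic region, 25.7 kb into the gene, carried a peak in the 3 AML lines and none in K562, and in Molm13 it had the highest fold enrichment of the window, above that at the TSS. Of the 22 separate H3K27ac regions of this window, 9 were found in K562 alone. Over the windows of all protein-coding genes, 28.9% of the regions were of K562 alone.

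CD47, the ligand that signals to phagocytes through SIRPA, was marked in all 4 lines, which shared 3 of the 8 regions of its window. Over the windows of all protein-coding genes, 13.4% of the regions were shared by all 4 lines. The gene (ENSG00000196776.17) spans 108043091 to 108091862 on the minus strand of chromosome 3. Its TSS peak was 2127 bp wide in OCI-AML3 (fold enrichment 3.88), 3012 bp in HL-60 (5.41), 1627 bp in Molm13 (6.40) and 1430 bp in K562 (3.81). Within each list, this fold enrichment stood between percentile 48.3 and 61.1 of TSS peaks, the narrowest range over the 4 lines among the genes marked at the canonical TSS in all of them. A region centred 10.4 kb upstream of the TSS was also called in every line, as was one 34.4 kb upstream whose peak lay within 500 bp of the start of LINC01215, a non-coding RNA gene, in HL-60 and K562. This farther region was the strongest of the window in HL-60, with a fold enrichment of 8.92, and in Molm13, with 7.54, above the TSS peak in both. The window was covered for 5.71% in OCI-AML3, 7.66% in HL-60, 6.47% in Molm13 and 7.53% in K562.

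CD44, the receptor for hyaluronan, was marked in the AML lines and had no peak at all in its K562 window. With peaks of a q-value below 0.001, OCI-AML3 was the 1 line left with a TSS peak. The gene (ENSG00000026508.21) spans 35138882 to 35232402 on the plus strand of chromosome 11. The TSS peak was 2956 bp wide in OCI-AML3 (fold enrichment 3.47), 864 bp in HL-60 (3.77) and 871 bp in Molm13 (3.70). This peak also lay within 500 bp of the start of CD44-DT, a divergent non-coding transcript, so that the mark cannot be assigned to one of the pair. The nearest K562 peak lay 97.5 kb from the TSS. Upstream of the gene, 3 regions centred 31.2, 40.1 and 44.7 kb from the TSS were called in Molm13 and OCI-AML3 and in neither of the other lines. In HL-60 the strongest peak of the window lay in an intron, 4.79 to 7.21 kb downstream of the TSS (fold enrichment 4.86), and no other line had a peak there.

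**Figure D2:**
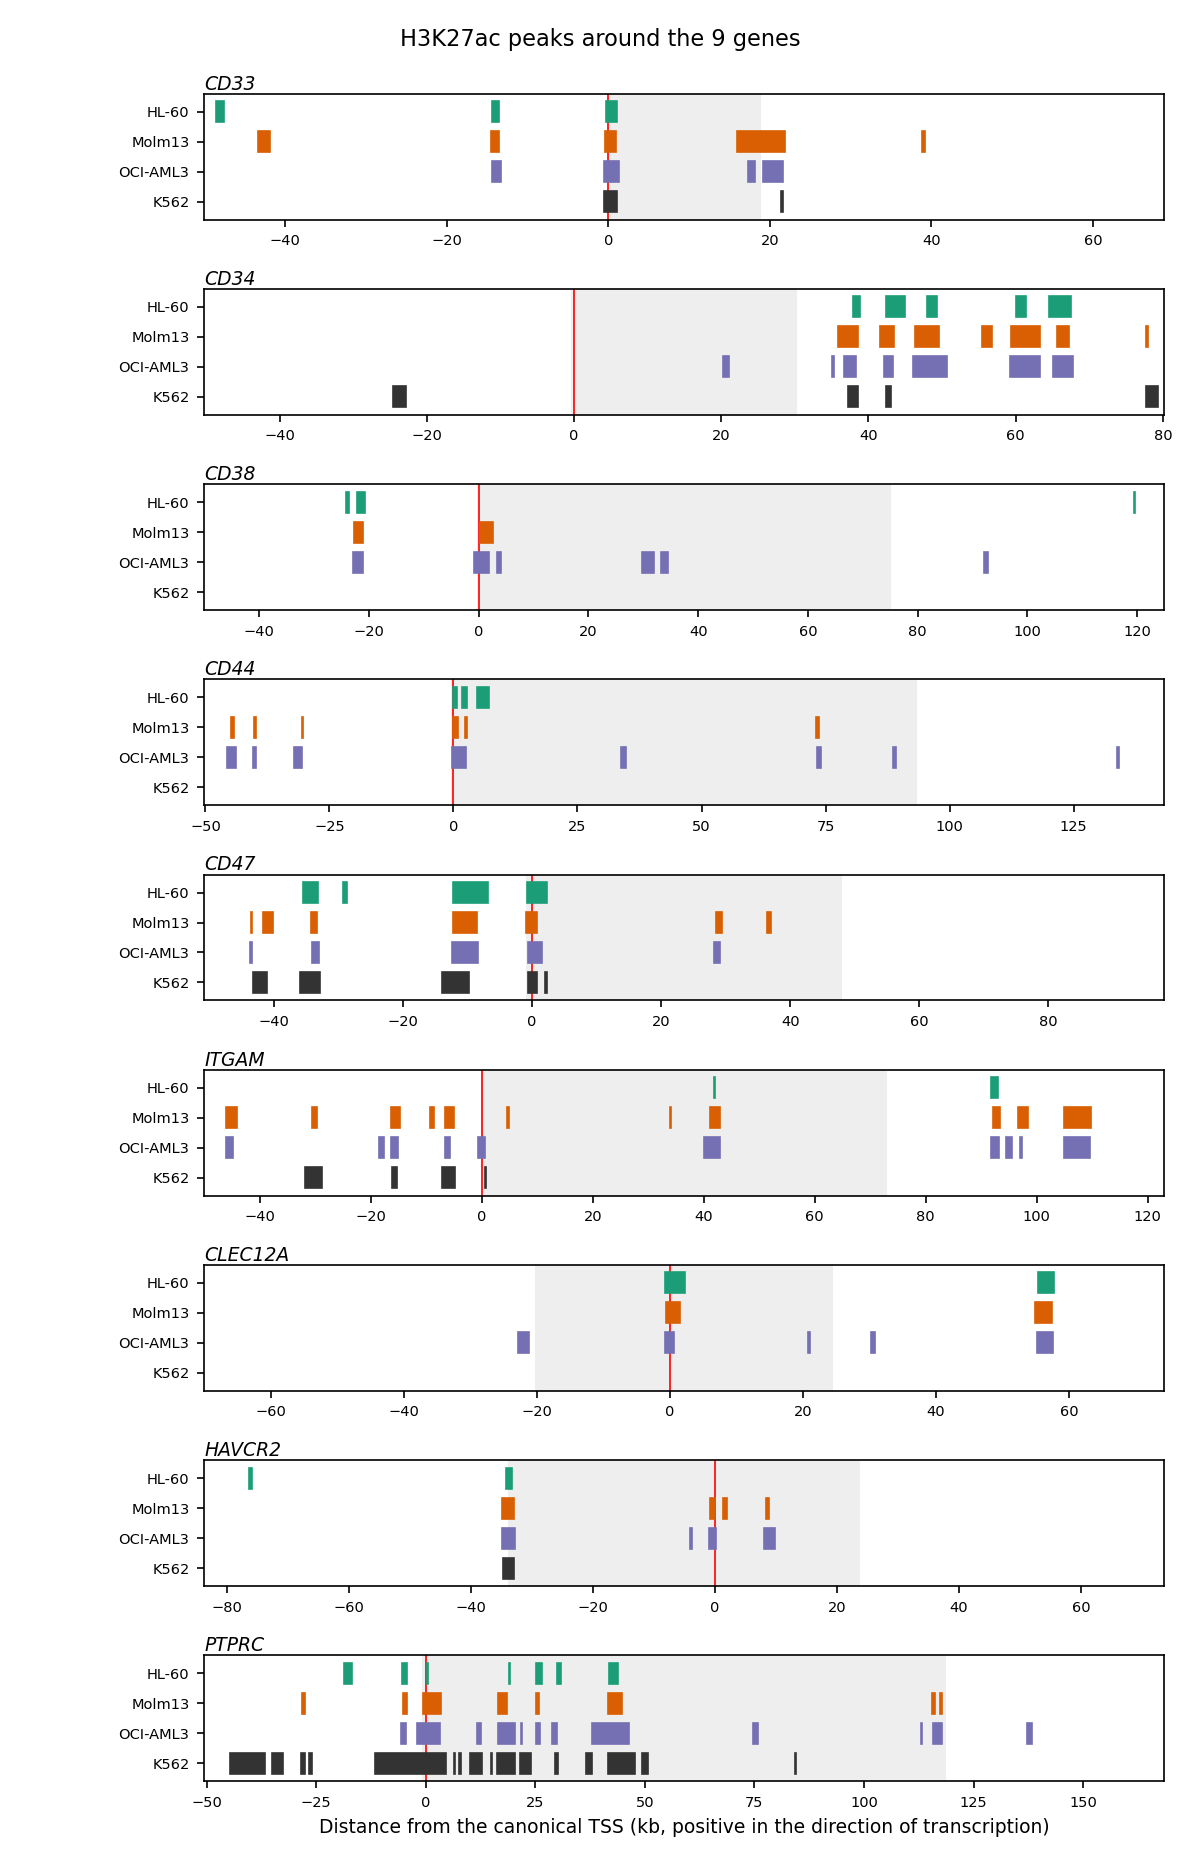
Called H3K27ac peaks in the window of each gene, drawn against the distance from the canonical TSS in kb, positive in the direction of transcription. Each bar is 1 peak of 1 line, grey shading is the gene body and the red line is the canonical TSS. The K562 rows of CD38, CD44 and CLEC12A are empty, and that of PTPRC holds 16 peaks.

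CD33, an inhibitory receptor that binds sialic acid and the target of antibody-drug conjugates in AML, was marked at its TSS in all 4 lines. It is encoded at 51225064 to 51243860 on the plus strand of chromosome 19 (ENSG00000105383.15). The peak was 1853 bp wide in OCI-AML3 (fold enrichment 3.48), 1454 bp in HL-60 (3.64), 1418 bp in Molm13 (5.94) and 1530 bp in K562 (2.94). Within its own list, the fold enrichment was at percentile 32.9 of TSS peaks in OCI-AML3, 16.0 in HL-60, 46.3 in Molm13 and 14.6 in K562. All 4 peaks thus stood below the median of their lists, and their widths ranged from 1418 to 1853 bp. In the surroundings, a region centred 13.8 kb upstream, over the pseudogene SIGLEC22P, was called in the 3 AML lines and not in K562, and a region at the 3′ end of the gene, reaching the start of SIGLECL1, was called in Molm13, OCI-AML3 and K562. There, the peak was 5870 bp wide in Molm13, split into peaks of 873 and 2408 bp in OCI-AML3, and 232 bp wide in K562.

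CLEC12A, an inhibitory lectin-like receptor used to follow residual AML, carried TSS peaks of low fold enrichment in the AML lines. The gene (ENSG00000172322.14) spans 9951316 to 9995694 on the plus strand of chromosome 12. Its TSS peaks were 1308 bp wide in OCI-AML3 (fold enrichment 2.95), 3003 bp in HL-60 (3.41) and 2148 bp in Molm13 (2.97). The Molm13 peak was at percentile 0.889 of fold enrichment, with a q-value of 0.0419, and HL-60 and OCI-AML3 stood at 10.4 and 16.1. None of the 3 had a q-value below 0.001. In each AML line a stronger peak lay 56.2 kb downstream of the TSS, outside protein-coding genes, with fold enrichments of 4.70 in OCI-AML3, 5.01 in HL-60 and 7.18 in Molm13. K562 had no peak in the window, and its nearest peak lay 101 kb from the TSS.

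ITGAM, the alpha chain of the CD11b/CD18 integrin, was marked at its TSS in OCI-AML3 with a peak of 1206 bp and a fold enrichment of 3.04. It lies at 31259967 to 31332892 on the plus strand of chromosome 16 (ENSG00000169896.18). In Molm13 the nearest peak lay 4594 bp from the TSS, and in HL-60 it lay 41.8 kb away. In K562 a peak of 229 bp began 596 bp downstream of the TSS, just outside the distance used here. The Molm13 window held 11 peaks over 10.1% of its length, and that of OCI-AML3 held 10 over 9.13%. K562 had 4 peaks over 3.74%, and HL-60 had 2 over 0.908%. Several of these peaks lay at other genes. In Molm13, peaks of 4916 and 1897 bp lay in ITGAX, and a peak of 2027 bp at the starts of PYDC1 and TRIM72. In OCI-AML3, a peak of 929 bp lay at the start of ITGAX and another of 4565 bp in its body. The widest K562 peak, of 2951 bp, overlapped TRIM72. The coverage thus cannot be assigned to ITGAM alone. Regions 6.03 and 15.5 kb upstream of the TSS were called in Molm13, OCI-AML3 and K562. An intronic region 41.5 kb into the gene was called in the 3 AML lines, with widths of 2952 bp in OCI-AML3, 242 bp in HL-60 and 1798 bp in Molm13.

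HAVCR2 encodes the immune checkpoint receptor TIM-3, a marker of leukaemic stem cells, and has 11 annotated starts between 157085422 and 157142869 on the minus strand of chromosome 5 (ENSG00000135077.10). Its strongest TSS peak lay at a start 33825 bp upstream of the canonical TSS, where MED7, a subunit gene of the Mediator complex, also starts. This shared peak was called in all 4 lines, with fold enrichments of 5.17 in OCI-AML3, 7.43 in HL-60, 8.12 in Molm13 and 5.14 in K562, and the peaks cannot be assigned to HAVCR2 alone. At the canonical TSS, a peak was called in Molm13 (949 bp, fold enrichment 3.38) and OCI-AML3 (1099 bp, 2.94). In HL-60 and K562 the nearest peak was the shared one. By the canonical start, HAVCR2 thus had the pattern of CD38, which 2.59% of protein-coding genes showed.

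CD38, an enzyme that consumes NAD and a target of therapeutic antibodies, was marked at its TSS in Molm13 and OCI-AML3. It lies at 15778275 to 15853232 on the plus strand of chromosome 4 (ENSG00000004468.13). The TSS peak was 2407 bp wide in Molm13 (fold enrichment 5.21) and 2745 bp in OCI-AML3 (5.30). The OCI-AML3 peak stood at percentile 90.8 of fold enrichment in its list and the Molm13 peak, whose edge lay 233 bp downstream of the TSS, at 34.6. In HL-60 the nearest peak lay 20.7 kb upstream. It formed part of a region centred 21.8 kb upstream that was called in all 3 AML lines, including HL-60, which lacked the TSS peak. OCI-AML3 had 3 more intronic peaks, centred 3.70, 30.9 and 33.9 kb into the gene, that were found in no other line. K562 had no peak in the window, the nearest lying 95.3 kb from the TSS.

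CD34, the sialomucin that marks haematopoietic stem and progenitor cells, had no peak at its canonical TSS in any line. The gene (ENSG00000174059.17) spans 207880972 to 207911402 on the minus strand of chromosome 1. OCI-AML3 had 1 peak of 750 bp (fold enrichment 2.54, percentile 5.80) at a start 20633 bp inside the gene. Apart from this peak and 1 in K562, centred 23.7 kb upstream of the TSS, every peak of the window lay beyond the 3′ end of the gene. Downstream of the gene, 2 regions centred 37.3 and 43.2 kb from the TSS were called in all 4 lines, and 3 regions centred 48.4, 61.3 and 66.2 kb from it were called in the 3 AML lines and not in K562. The region at 43.2 kb lay at a start of MIR29B2CHG, the host gene of microRNAs of the miR-29 family, so these regions lie near another transcript as well. The CD34 window was covered for 11.7% in OCI-AML3, 6.95% in HL-60, 11.7% in Molm13 and 4.17% in K562.

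Across the 9 windows, there were 61 peaks in OCI-AML3, 31 in HL-60, 52 in Molm13 and 32 in K562. With lists of equal length the counts were 37 in OCI-AML3, 31 in HL-60, 31 in Molm13 and 21 in K562, so that Molm13 and HL-60 no longer differed in number. The median share of a window under peaks was 5.35% in OCI-AML3, 2.77% in HL-60, 5.80% in Molm13 and 1.48% in K562. For all protein-coding genes, the median was 3.59% in OCI-AML3, 1.29% in HL-60, 3.05% in Molm13 and 4.31% in K562. The share lay above that median for 8 of the 9 genes in OCI-AML3, 6 in HL-60, 6 in Molm13 and 2 in K562, the latter being CD47 and PTPRC. No peak was called in the K562 windows of CD38, CD44 and CLEC12A, as in 19.4% of the windows of all protein-coding genes. Each of the 9 windows held a peak in every AML line, while the share of windows without one was 15.8% in OCI-AML3, 21.4% in HL-60 and 15.7% in Molm13. Without PTPRC, the K562 windows held 16 peaks and the median share was 1.35%.

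**Figure D3:**
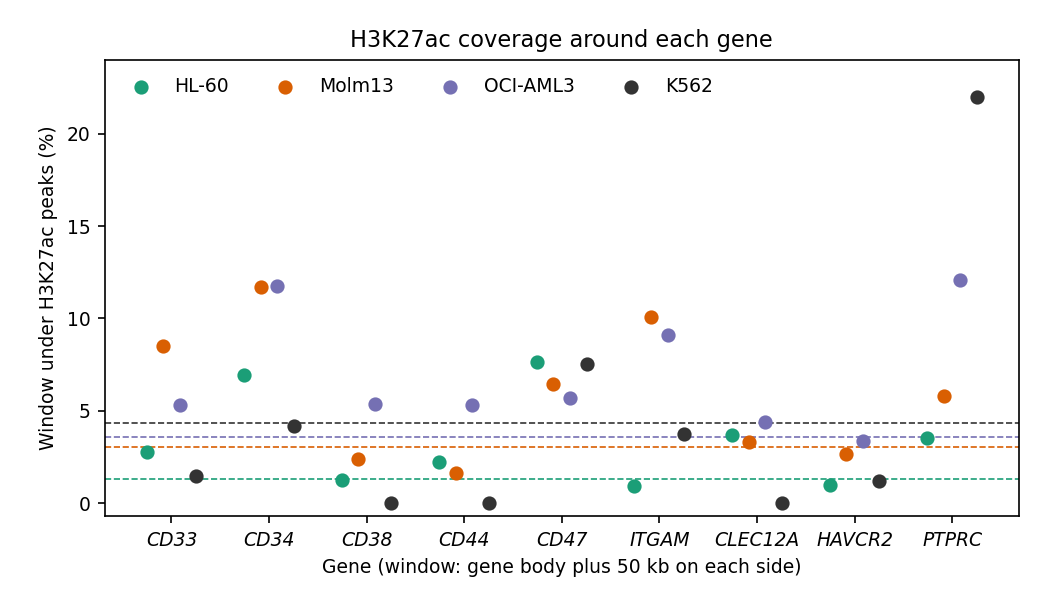
Share of each window (gene body plus 50 kb on each side) under H3K27ac peaks, in percent, with 1 point per line and gene. Dashed lines give the median over all protein-coding genes in the line of the same colour. K562 is at 0 for CD38, CD44 and CLEC12A and at 21.99% for PTPRC, and OCI-AML3 lies above its dashed line for 8 of 9 genes.

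When overlapping peaks of the 4 lists were merged, the 9 windows held 89 regions. Of these, 15 lay at a TSS of one of the 9 genes and 74 elsewhere. Peaks of all 4 lines were found in 10 regions (11.2%), against 13.4% of the 63513 regions in the windows of all protein-coding genes. The 3 AML lines without K562 shared 11 regions (12.4% against 3.88%), and Molm13 and OCI-AML3 alone shared 13 (14.6% against 9.76%). With lists of equal length, the set of Molm13 and OCI-AML3 held 5 of 58 regions (8.62% against 8.45%), near the background. It stayed above the background with a q-value below 0.001 (22.2% against 14.3%), in the other windows and with 50% of a region covered. The set of the 3 AML lines fell to 3 of 45 regions with a q-value below 0.001 (6.67% against 5.33%), to 4 of 50 in windows of 10 kb (8% against 3.75%), to 7 of 69 within 50 kb of the canonical TSS (10.1% against 3.86%) and to 6 of 89 when 50% of a region had to be covered (6.74% against 1.41%). K562 alone had 11 regions (12.4% against 28.9%), of which 9 were at PTPRC, and HL-60 alone had 7 (7.87% against 7.24%). OCI-AML3 alone had the most, with 19 (21.3% against 13.7%), and Molm13 alone had 8 (8.99% against 12%). Around the other 8 genes, K562 had a peak in 15 of 67 regions. This count leaves out PTPRC, whose K562 peaks were already known, and has no share over all protein-coding genes beside it. The regions of one window are neighbours and are not independent, so the shares are given as a description.

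**Figure D4:**
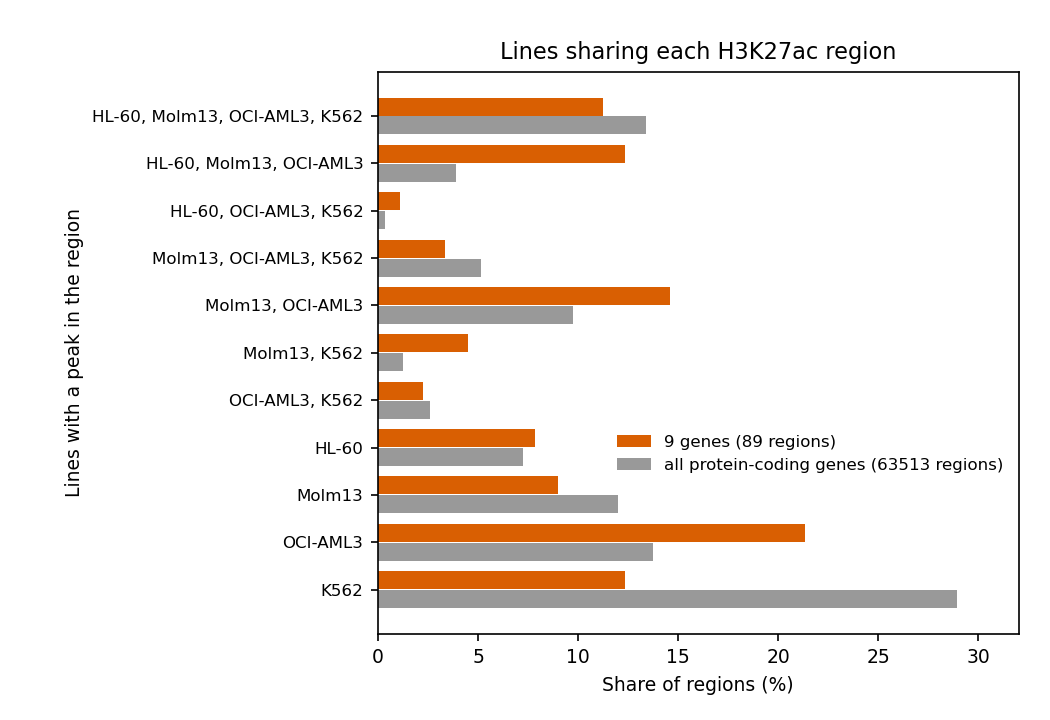
Share of merged H3K27ac regions, in percent, by the set of lines with a peak in them, for the windows of the 9 genes (89 regions) and of all protein-coding genes (63513 regions). Sets without a region among the 9 genes are left out. The set of the 3 AML lines makes up 12.4% and 3.88%, and K562 alone 12.4% and 28.9%.

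Genes that act with these antigens were looked up in 4 further lists. Of 12 other surface antigens of leukaemia, 6 had a TSS peak in OCI-AML3, 4 in HL-60, 7 in Molm13 and 1 in K562. FLT3, a cytokine receptor kinase, IL1RAP, a co-receptor for interleukin-1, and CD4 showed the pattern of CD44, with a TSS peak in the 3 AML lines and none in K562. At FLT3 the TSS peak was 12765 bp wide in OCI-AML3, 920 bp in HL-60 and 11765 bp in Molm13. LILRB4, an inhibitory receptor of monocytes, and the scavenger receptor CD36 showed that of CD38.

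Among 10 binding partners and ligands, 6 were marked in OCI-AML3, 8 in HL-60, 6 in Molm13 and 3 in K562. ITGB2, the beta chain that pairs with ITGAM, and SIRPA, the receptor of CD47, were marked in the 3 AML lines and not in K562. Of 11 relatives of the 9 genes, 5 were marked in OCI-AML3, 2 in HL-60, 6 in Molm13 and 1 in K562. BST1, the neighbour and relative of CD38, had a TSS peak in the same lines as CD38, Molm13 and OCI-AML3, and ITGAX, the neighbour of ITGAM, in OCI-AML3 alone. Of 7 genes of signalling below these receptors, 6 were marked in every line. Over these 40 genes, a TSS peak was found for 23 in OCI-AML3, 20 in HL-60, 25 in Molm13 and 11 in K562. As shares these are 57.5% in OCI-AML3, 50% in HL-60, 62.5% in Molm13 and 27.5% in K562, beside 57.7%, 44.7%, 53.9% and 55.9% of all protein-coding genes in the same order. The OCI-AML3 and HL-60 shares are thus near the background, and the 6 of 12 surface antigens in OCI-AML3 (50%) lie below it.

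For each of the 9 genes, the most similar protein-coding genes were sought by the summed width of TSS peaks, taken as a percentile within each list and as 0 without a peak, and by the largest difference over the 4 lines. PTPRC was closest to TACC1 (largest difference 4.98 percentile points) and RHOBTB3 (5.04), CD38 to INSR (3.06) and NRIP3 (3.29), and CD33 to IGBP1 (1.41) and RIBC1 (4.45). HAVCR2 was closest to SKAP2 (4.13) and CRYZL1 (5.38), CD44 to RPGR (6.50) and VIPR1 (7.61), CD47 to MBD1 (6.59) and IMPA2 (6.63), and CLEC12A to ZBTB16 (7.57) and LIMD2 (7.87). For CD34 (GIMAP6 and UBE2D1, both 0.0909) and ITGAM (CAPS2 and GLIPR1L2, both 0.0346), the likeness rests on OCI-AML3, the 1 line with a TSS peak. Likeness over 4 libraries says nothing of shared control.

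In K562 cells carrying 4 sgRNAs against LTR2B, a repeat family derived from endogenous retroviruses, no dCas9 peak lay within 50 kb of any of the 9 genes. The nearest lay 238 kb from CLEC12A, and for the other genes the distance was between 322 and 11086 kb. The share of all protein-coding genes without such a peak is not given here, so this absence cannot be called particular to the 9 genes.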

How the data were processed

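H3K27ac ChIP-seq peak lists of 4 libraries, 1 per line, were analysed, with the dCas9 list of K562 for positions only. The other samples of the 19 in the series were not used here. The authors trimmed reads with Trim Galore 0.4.5, aligned them to hg38 with Bowtie2 2.3.4 (versions per the labels), kept uniquely mapped reads and called peaks with MACS2 2.1.1 at q 0.05, in broad mode for H3K27ac. The series holds an input library for each line. The sources used here do not state whether these inputs were the controls for peak calling. The deposited columns are a score, the fold enrichment over local background (a ratio), and −log10 p and −log10 q values. The score was not used. The largest q-value was 0.0995. Fold enrichment depends on the depth of each library, which was unknown, and was therefore ranked within its list.

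GENCODE v44 gave genes, TSSs and canonical transcripts. A gene was called when a peak lay within 500 bp of any of its TSSs. Where several did, the widest was described. Windows were the gene body plus 50 kb on each side, and overlaps required 1 bp. Percentiles are over the protein-coding genes called in the same list. Coordinates are 1-based. Promoter sequences are from RefSeq (GRCh38.p14), and motif shares are over all promoters of that table.

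The text names the 9 genes, at most 10 genes of the further lists called in some but not all lines, genes that start under a peak of a member's window, and the 2 most alike genes per member. The 9 genes and the lists were chosen with earlier results of these data known. No test was run, since each line had 1 library, and members are not replicates. TSS calls were tested on simulated peaks. On the real lists, TSS calls and covered lengths equalled those of bedtools 2.31.1. Python 3.11.15, NumPy 2.4.6, pandas 2.3.3 and matplotlib 3.10.9 were used. Background shares under the alternatives were computed after the members' values were seen. Alternatives were the q-value limit, lists of equal length, the TSS distance, the canonical TSS, the window, joining of peaks within 1 kb and an overlap of 50%.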

Additional observations from a re-analysis of the deposited data

How the results depend on the processing

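No paired analysis was possible because each line had 1 library with a peak list. Leaving out a replicate was likewise not possible. The number of marked genes per line stayed within 1.5 times under every alternative except a q-value below 0.001, which left 2 in HL-60 (CD47 and HAVCR2). Under that limit the TSS calls of CLEC12A in all 3 AML lines, of CD44 in HL-60 and Molm13, of CD33 and PTPRC in HL-60 and of CD34 in OCI-AML3 were lost. With lists of equal length, those of CLEC12A in Molm13 and OCI-AML3 and of CD34 in OCI-AML3 were lost. A TSS distance of 1000 bp added ITGAM in K562, and a peak over the TSS itself removed PTPRC in HL-60 and CD38 in Molm13. A q-value below 0.05 changed no TSS call. The q-value limit of 0.001 left 37 window peaks in OCI-AML3, 11 in HL-60, 23 in Molm13 and 12 in K562. Median shares were then 0.769% in HL-60 and 3.65% in Molm13. Of 45 regions, 5 were of all 4 lines (11.1% against 22.2% for all protein-coding genes). The AML lines without K562 had 3 (6.67% against 5.33%), and K562 alone had 3 (6.67% against 19.8%). Equal list length gave 37 peaks in OCI-AML3, 31 in Molm13 and 21 in K562, beside an unchanged 31 in HL-60. The median share in Molm13 was then 3.65%. Of 58 regions, 5 were of Molm13 and OCI-AML3 alone (8.62% against 8.45% for all protein-coding genes). OCI-AML3 alone had 9 (19 with all peaks), or 15.5% against 7.31%, and K562 alone had 6 (10.3% against 22.1%). Windows of 10 kb gave 39, 16, 28 and 21 peaks in OCI-AML3, HL-60, Molm13 and K562, a median share of 2.69% in K562, and 4 regions of the AML lines, 6 of Molm13 and OCI-AML3 and 7 of K562 alone. Windows of 100 kb gave 49 peaks in HL-60 and 54 in K562, and median shares of 2.54% in K562 and 8.47% in OCI-AML3. Of their 137 regions, 17 were of the AML lines without K562 (12.4% against 3.91%). K562 alone had 19 (13.9% against 28.9%). Counted within 50 kb of the canonical TSS, the median share in OCI-AML3 was 8.08%. Of 69 regions, 7 were of the AML lines without K562 (10.1% against 3.86%). OCI-AML3 alone had 12 (17.4% against 11.8%). When 50% of a region had to be covered, 3 of 89 regions were assigned to all 4 lines (3.37% against 2.53%). The AML lines without K562 then had 6 (6.74% against 1.41%), and K562 alone had 17 (19.1% against 34.4%). The cause of these changes was not tested. Depth was unknown, so a missing peak does not show that the mark was absent.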
